A study of Mus musculus with 10 samples.

Results

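Airway smooth muscle contracts through a shared set of proteins, and the CpG methylation of 10 of their genes was followed here in the lungs of mice with ovalbumin (OVA)-induced asthma. The members were Acta2, Myh11, Myl9 and Mylk of the contractile apparatus, Tagln, Cnn1, Lmod1 and Des among the actin-binding and filament proteins, the transcriptional coactivator Myocd, and the muscarinic receptor gene Chrm3. They were named by function, and every deposited window of 1000 bp that touched the RefSeq span of a member gene, extended by 5000 bp on each side, was taken. This gave 210 of 446336 windows. Of these, 202 held at least 20 CpG calls in every mouse and were used, of 421759 such windows in all.

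The mice were BALB/c females, 8 weeks old when bought, and whole lung tissue was the source of DNA. Saline-treated mice (n = 3) received saline only. OVA-induced mice (n = 3) were sensitized by intraperitoneal injection of 50 µg OVA with alum and challenged intranasally with 25 µg OVA for 4 days from day 12. DSE-treated mice (n = 4), labelled as herb-treated, received the same OVA protocol and also 200 mg/kg of an extract of Descurainia sophia seeds (DSE) by mouth on days 9 to 15. The study's methods also name an oral vehicle on days 9 to 15 but do not say plainly which mice received it. The labels name each mouse as a separate sample and give no genotype beyond the strain.

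In smooth muscle, a rise in calcium activates the myosin light chain kinase encoded by Mylk, which phosphorylates the regulatory light chain encoded by Myl9. Myosin made from Myh11 heavy chains then pulls on actin filaments rich in the Acta2 product. Acetylcholine acting on the M3 receptor, the Chrm3 product, is a main trigger of this chain in the airway. Many of these genes are switched on by serum response factor together with myocardin, the Myocd product, at a short sequence called the CArG box. Methylation of CpGs near a start site is often, though not always, associated with a gene that is not transcribed. The files hold no expression data, so the tissue label could not be checked against transcript levels. In bulk lung, a change in the share of smooth muscle cells and a change of methylation within those cells cannot be told apart.

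Methylation was measured as methylated and unmethylated CpG calls per window after capture and bisulfite conversion. Each mouse had between 306656737 and 410836272 calls over all windows, which overlap by 500 bp and therefore count many calls again in a neighbour. Member windows held from 23 to 7512 calls per mouse, with a median of 415, against a median of 450 for all windows. They held a median of 14 CpGs, against 13 for all windows. Among the 202 windows used, 13 repeated the calls of the window before them, and 9 also touched another protein-coding gene, namely Pcsk7 or Sidt2 at Tagln and Elof1 at Cnn1. Mylk supplied 53 of the 202 windows, followed by Myh11 with 24, Chrm3 with 23, Des and Myl9 with 18 each, Lmod1 with 16, Myocd with 15, Acta2 with 13, Tagln with 12 and Cnn1 with 10.

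The start sites of these genes differ in CpG content, and 4 promoters are shown. Those of Acta2 and Lmod1 hold fewer CpGs and lie in windows that were called, and those of Des and Chrm3 hold more and lie in windows with little methylation in any group. Each is the stretch of 250 bases directly before the RefSeq start on GRCm38 (mm10), 5′ to 3′ on the strand of the gene, with CpG dinucleotides in capitals. Acta2 lies at chr19:34255374-34255623 on the minus strand, Lmod1 at chr1:135324563-135324812 on the plus strand, Des at chr1:75360042-75360291 on the plus strand and Chrm3 at chr13:10360804-10361053 on the minus strand.
Acta2: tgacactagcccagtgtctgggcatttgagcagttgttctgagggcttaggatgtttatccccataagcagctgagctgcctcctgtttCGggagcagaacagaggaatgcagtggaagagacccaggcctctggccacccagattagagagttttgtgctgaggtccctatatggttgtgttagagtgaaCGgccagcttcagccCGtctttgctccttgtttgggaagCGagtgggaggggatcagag
Lmod1: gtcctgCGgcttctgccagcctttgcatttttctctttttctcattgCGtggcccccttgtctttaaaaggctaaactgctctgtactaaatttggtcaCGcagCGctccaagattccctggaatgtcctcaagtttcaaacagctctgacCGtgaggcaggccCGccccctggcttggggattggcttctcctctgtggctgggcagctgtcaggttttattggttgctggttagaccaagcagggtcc
Des: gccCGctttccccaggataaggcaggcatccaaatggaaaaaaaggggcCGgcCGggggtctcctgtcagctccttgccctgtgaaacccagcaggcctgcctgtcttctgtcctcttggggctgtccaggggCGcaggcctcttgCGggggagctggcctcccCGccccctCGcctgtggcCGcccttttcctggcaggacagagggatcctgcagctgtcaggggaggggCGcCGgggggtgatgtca
Chrm3: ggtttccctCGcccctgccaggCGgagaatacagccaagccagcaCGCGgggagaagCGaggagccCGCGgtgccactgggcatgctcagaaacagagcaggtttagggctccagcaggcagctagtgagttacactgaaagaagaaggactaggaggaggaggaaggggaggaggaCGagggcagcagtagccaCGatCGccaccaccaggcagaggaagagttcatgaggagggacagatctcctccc
Acta2 held 4 CpGs in this stretch and Lmod1 held 6, which is the median of all 32851 RefSeq promoters, while Des and Chrm3 held 10 each. Myl9 was the richest of the 7 member promoters with a sequence to hand, with 16 CpGs, and Mylk and Cnn1 held 3 each. The 4 shown do not stand for all members. Despite its few CpGs here, Cnn1 had a start-site window with a saline mean of 5.75% that was not called. No sequence was used for Tagln, Myocd and Myh11.

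CArG boxes were searched in the same 250 bases, because this is the element that serum response factor and myocardin use. The box reads the same on both strands. Allowing 1 letter other than A or T in its core, 2 of the 7 member promoters held a box, namely Acta2 and Myl9, against 8.59% of all promoters. With no other letter allowed, only Myl9 of these 7 held it, against 1.47% of all promoters. The boxes are shown in capitals with 10 bases on each side, in the order of their distance before the start site: for Acta2, bases -84 to -75 (chr19:34255448-34255457) and -34 to -25 (chr19:34255398-34255407), and for Myl9, bases -161 to -152 (chr2:156775303-156775312) and -99 to -90 (chr2:156775365-156775374).
Acta2 distal box: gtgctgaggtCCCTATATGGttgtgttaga
Acta2 proximal box: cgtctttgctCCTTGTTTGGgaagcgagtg
Myl9 distal box: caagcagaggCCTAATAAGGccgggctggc
Myl9 proximal box: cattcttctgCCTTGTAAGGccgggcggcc
A match is a description of letters and does not show that a factor binds there. None of the 4 boxes contains a CpG within its own letters.

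In saline-treated lungs the mean methylation level of a locus, taken over all its windows, was highest at Tagln (60.7% ± 1.48, SD, n = 3) and Acta2 (59.4% ± 2.24). Mylk stood at 53.6% ± 0.0889, Myl9 at 50.2% ± 1.47, Lmod1 at 49.5% ± 0.659, Myh11 at 47.5% ± 1.14 and Chrm3 at 46.0% ± 0.798. Des at 41.8% ± 1.18, Myocd at 36.7% ± 1.89 and Cnn1 at 24.1% ± 1.59 were the lowest. Among neighbours in this order, Tagln and Acta2, Myl9 and Lmod1, and Myh11 and Chrm3 had overlapping mice. The order also depends on which stretches of each gene the capture covered.

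Within a gene, windows ran from nearly unmethylated to nearly fully methylated. The start-site window of Chrm3 (chr13:10360501-10361500, first exon, 56 CpGs) was at 2.0%, 0.0% and 0.0% in the 3 saline mice, and a window in an intron of the same gene (chr13:10054501-10055500) was at 97.8% ± 0.171. Windows over the starts of Des, Myocd and Myh11 were also low in saline mice, with means of 4.09%, 4.94% and 5.47%. Those of Lmod1 and Acta2 were partly methylated in saline mice, at 24.1% and 42.0%. Over the 10 mice, 135 member windows, or 66.8%, had a mean between 20% and 80%, against 56.0% of all windows.

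OVA-induced lungs carried more methylation than saline-treated lungs in a set of windows at smooth muscle genes. A window was called when a likelihood ratio test on its pooled calls gave an adjusted p under 0.01 and the pooled levels differed by at least 10 percentage points. Of the 202 member windows, 24 were called higher in OVA-induced mice, or 11.9%, against 4.83% of all windows, and 1 was called lower, against 2.6%. The 24 windows formed 14 regions in 8 of the genes, with 9 windows at Mylk, 3 each at Acta2, Myl9 and Lmod1, 2 each at Myh11 and Tagln and 1 each at Cnn1 and Des. Myocd and Chrm3 had none. The differences ran from 10.1 to 18.6 percentage points with a median of 12.7. The lower count was 0 without OVA-induced mouse 2, 2 without mouse 1 and 3 without mouse 3 of that group.

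That test takes each call as independent and does not see how far mice of 1 group differ. In 21 of the 24 windows all OVA-induced mice lay above all saline-treated mice. Over the 202 windows this held for 64, or 31.7%, against 18% of all windows. A limma test on the mice, at an adjusted p under 0.05 and the same difference, called 6 of the 202 higher, against 1.76% of all windows. It called 1 lower, but the share of all windows it called lower is not given here, so this count is not read further. The median difference was 1.69 percentage points over the member windows and 0.727 over all windows. In the range between 20% and 80%, 21 of 135 member windows were called higher, or 15.6%, against 8.25% of all windows in that range.

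**Figure D1:**
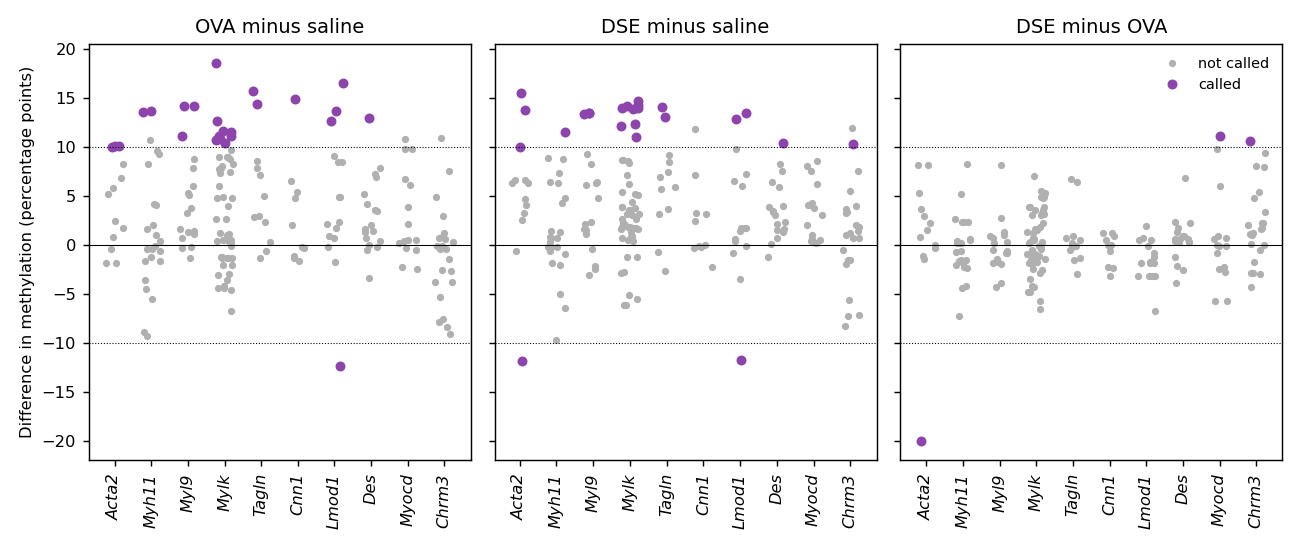
Difference in methylation level, in percentage points, for each of the 202 windows (1 point per window, spread sideways for sight) by gene, for OVA minus saline, DSE minus saline and DSE minus OVA. Purple points were called and dotted lines mark 10 percentage points. The purple points lie above 10 in the comparisons with saline, except 1 Lmod1 window in both and 1 Acta2 window with DSE, while DSE minus OVA has 3.

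The loci of other cell types moved as well. Of the 8 pan-leukocyte loci, 8 had a lower mean in OVA-induced mice and 4 were called lower by limma on locus means (adjusted p under 0.05), against 3.28% of all loci. The mean of this list was 51.8% to 53.4% in saline mice, 46.7% to 48.7% in OVA-induced mice and 46.8% to 49.2% in DSE-treated mice. Ptprc, which encodes the leukocyte common antigen CD45, fell by 9.74 percentage points. All 4 eosinophil loci were lower and 2 were called, with Prg2, which encodes an eosinophil granule protein, down from 65.6% to 53.0%. The list mean was 62.0% to 65.2% in saline, 58.3% to 60.3% in OVA-induced lungs and 56.8% to 59.9% in DSE-treated lungs. The 4 endothelial loci were higher, and 3 of them were called, where 9.18% of all loci were called higher, among them Tek with 44.2% in saline and 55.3% in OVA-induced mice. Their mean was 41.3% to 44.2% in saline, 47.4% to 49.8% in OVA-induced lungs and 46.8% to 49.2% in DSE-treated lungs. Of 6 epithelial loci, 4 were higher and 2 were called, with a list mean of 41.6% to 42.7%, 43.2% to 44.8% and 43.4% to 44.7% in the same order. The part of these shifts in the smooth muscle result was not tested.

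**Figure D2:**
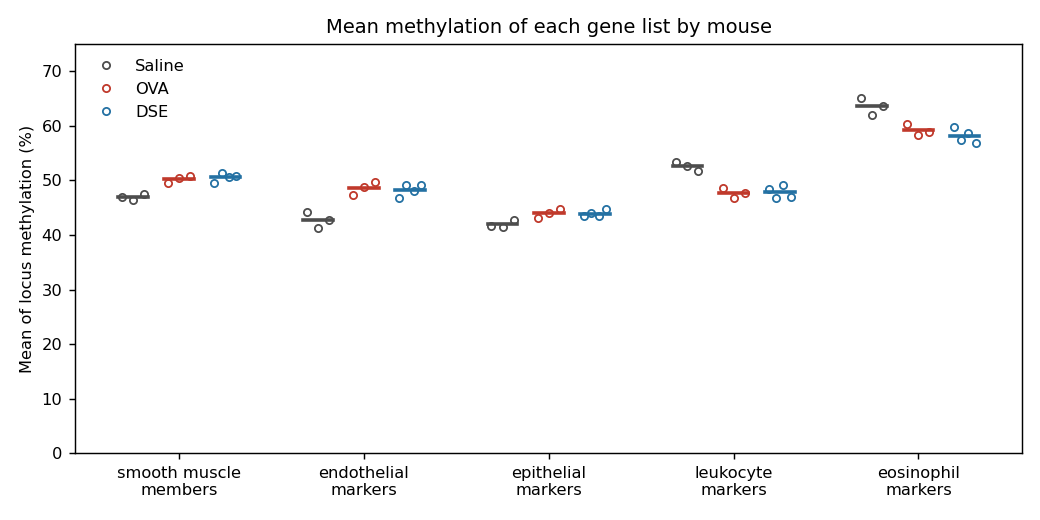
Mean methylation (%) of each gene list in each mouse, with 1 circle per mouse and a bar at the group mean. The 10 smooth muscle members and the endothelial and epithelial markers lie higher in the OVA and DSE mice than in the saline mice without overlap. The leukocyte and eosinophil markers lie lower without overlap.

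Acta2 encodes smooth muscle actin alpha. Its start-site window (chr19:34255001-34256000, first exon and upstream sequence, 16 CpGs), which contains the Acta2 promoter and both Acta2 boxes printed above, was at 39.0%, 42.0% and 44.99% in saline, 49.9%, 55.5% and 51.5% in OVA-induced lungs and 52.4%, 60.5%, 50.5% and 60.7% in DSE-treated lungs. Every OVA-exposed mouse was above every saline mouse. The OVA minus saline difference was 10.1 percentage points (likelihood ratio adjusted p = 3.27e-13, limma adjusted p = 0.122). The windows to either side, which share calls with it, were called as well and had differences of 10.2 and 10.1.

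Myh11 encodes the smooth muscle myosin heavy chain. A window upstream of the start, with its midpoint at -1592.5 bp (chr16:14292501-14293500) was at 33.2%, 31.5% and 33.4% in saline, 46.1%, 47.0% and 46.0% in OVA-induced lungs and 41.1%, 51.7%, 43.8% and 41.8% in DSE-treated lungs. The saline and OVA mice each kept within a narrow band and did not overlap, and OVA minus saline was 13.6 percentage points (adjusted p = 2.60e-16, limma adjusted p = 0.0369). At the start itself (chr16:14291001-14292000), the levels were 5.9%, 4.5% and 6.0% in saline and 7.7%, 10.7% and 10.1% in OVA-induced mice. That rise of 4.07 points was under the 10 points needed for a call, although the groups did not overlap (limma adjusted p = 0.0400). The other called window, over exon 39 (chr16:14201001-14202000), rested on 38 to 62 calls per mouse, with a difference of 13.7 (likelihood ratio adjusted p = 0.00806).

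Myl9 encodes the regulatory light chain. Its start-site window (chr2:156775001-156776000, 33 CpGs), which holds the printed CArG boxes, was at 8.1%, 10.1% and 6.3% in saline and 9.1%, 10.3% and 9.6% in OVA-induced mice, and these groups overlapped. Beyond the 3′ end (chr2:156783501-156784500) the levels were 47.6%, 44.4% and 45.5% in saline, 56.0%, 55.9% and 59.8% in OVA-induced lungs and 51.1%, 55.9%, 56.2% and 58.6% in DSE-treated lungs. This window was called, with OVA minus saline at 11.2 percentage points (adjusted p = 3.05e-21, limma adjusted p = 0.0467). The other called pair at Myl9, over exon 2, held the same 24 to 96 calls and had overlapping groups.

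Mylk encodes the kinase that starts contraction, and its locus spans 257238 bp. The window with the greatest rise of any member (chr16:34748501-34749500) has its midpoint at -35950 bp from the start of the curated transcript but lies inside the RefSeq span of the gene. It was at 20%, 30.4% and 26.5% in saline, 50%, 41.7% and 37.7% in OVA-induced lungs and 36.4%, 39.7%, 38.2% and 37.0% in DSE-treated lungs. With 53 to 102 calls per mouse OVA minus saline was 18.6 percentage points (adjusted p = 5.82e-05, limma adjusted p = 0.0342), and no OVA-exposed mouse was as low as a saline mouse.

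The other 8 called Mylk windows lay in introns 1, 17 and 22 and over exon 32. In intron 22, a window at chr16:34967001-34968000 was at 35.1%, 36.1% and 33.9% in saline, 40.9%, 50.7% and 45.5% in OVA-induced lungs and 43.3%, 54.6%, 47.6% and 53.6% in DSE-treated lungs. The OVA-induced and saline mice did not overlap, and the difference was 10.8 percentage points (adjusted p = 1.51e-12, limma adjusted p = 0.112). In intron 17 (chr16:34936001-34937000), saline mice were at 51.2%, 53.8% and 48.9% and OVA-induced mice at 66.7%, 56.6% and 66.4%, a difference of 12.7 (adjusted p = 1.47e-06, limma adjusted p = 0.0879). No used window lay within 1000 bp of the curated start of Mylk. The CpG-rich window at the far 5′ end of the gene span (chr16:34744501-34745500, 52 CpGs) was at 1.11% ± 0.0209 in saline, 1.59% ± 0.352 in OVA-induced lungs and 1.84% ± 0.992 in DSE-treated lungs.

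**Figure D3:**
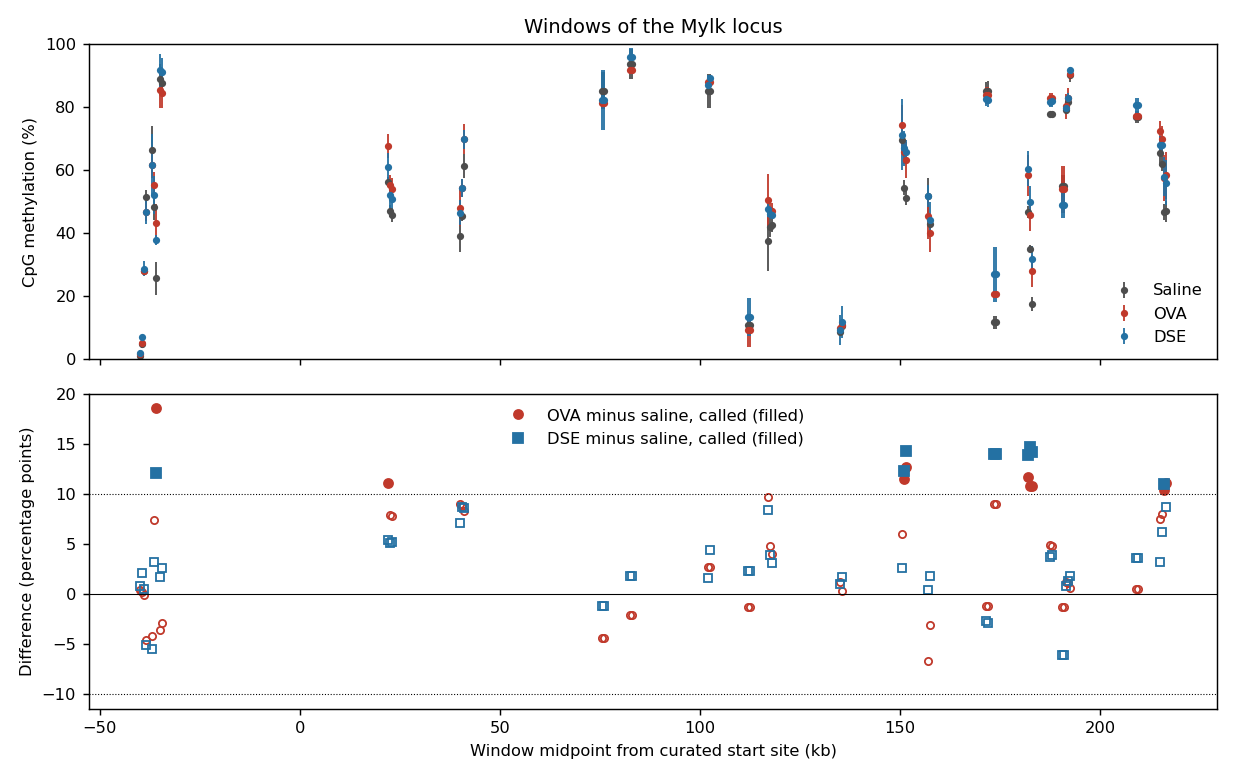
Methylation level (%, group mean with SD as bars, upper panel) and difference from saline (percentage points, lower panel) of the 53 windows of Mylk against distance from the curated start site in kb. Circles are OVA and squares are DSE minus saline, and filled symbols were called. The filled symbols lie at the far 5′ end, in introns 1, 17, 21 and 22 and over exon 32, and none lies below 0.

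Tagln encodes transgelin, an actin-binding protein also known as SM22-alpha. Its start-site window (chr9:45935501-45936500, 25 CpGs) was at 13.6%, 16.0% and 19.8% in saline, 32.4%, 34.1% and 24.2% in OVA-induced lungs and 32.2%, 30.5%, 30.1% and 26.2% in DSE-treated lungs. The saline mice lay below all others. OVA minus saline was 14.4 percentage points (adjusted p = 6.74e-25, limma adjusted p = 0.0333). The overlapping window at chr9:45935001-45936000, which lies downstream of the start, differed by 15.7 (limma adjusted p = 0.0338). No window further upstream was called. OVA minus saline was -0.546 at chr9:45936001-45937000, where the groups overlapped, and 2.41 at chr9:45936501-45937500, where they did not. Beyond these it ran from -1.26 at chr9:45940001-45941000, with overlapping groups, to 7.15 at chr9:45941001-45942000, without overlap.

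Lmod1 encodes leiomodin, which helps to assemble actin filaments. Its start-site window (chr1:135324501-135325500, 24 CpGs), which contains the Lmod1 promoter printed above, was at 24.6%, 24.8% and 23.0% in saline, 33.1%, 45.4% and 33.5% in OVA-induced lungs and 34.4%, 43.0%, 34.0% and 36.3% in DSE-treated lungs. The OVA minus saline difference of 13.7 percentage points was called (adjusted p = 9.38e-32, limma adjusted p = 0.0574). The next window, chr1:135325001-135326000, differed by 16.6 (limma adjusted p = 0.0828), with saline mice at 35.3%, 45.7% and 42.0% and OVA-induced mice at 58.9%, 64.2% and 48.0%. In the 3′ flank of Lmod1, chr1:135370001-135371000 went the other way, from 75.2%, 73.5% and 72.1% in saline to 64.1%, 56.6% and 62.9% in OVA-induced mice. OVA minus saline there was -12.3 percentage points (adjusted p = 2.95e-07, limma adjusted p = 0.0487).

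Cnn1 encodes calponin, which damps actomyosin activity. At its start-site window (chr9:22099001-22100000, 19 CpGs) saline mice were at 6.1%, 5.6% and 5.6% and OVA-induced mice at 8.5%, 10.3% and 13.0%. The groups were apart by 4.77 percentage points in pooled level, under the size needed for a call. The called Cnn1 window, chr9:22098001-22099000, rested on 35 to 78 calls, and its saline mice at 1.9%, 20% and 14.0% overlapped OVA-induced mice at 18.4%, 30.2% and 26.3%.

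Des encodes desmin, the intermediate filament of muscle. Its start-site window (chr1:75360001-75361000, 84 CpGs, the most of any member start), which contains the printed Des promoter, was at 4.3%, 3.7% and 4.2% in saline, 4.9%, 5.7% and 5.9% in OVA-induced lungs and 5.1%, 4.9%, 5.6% and 7.1% in DSE-treated lungs. The OVA-induced and saline mice did not overlap, but their difference was only 1.32 percentage points. Downstream of the gene (chr1:75370001-75371000) the levels were 35.9%, 34.9% and 36.1% in saline, 41.8%, 52.4% and 53.1% in OVA-induced lungs and 46.0%, 48.8%, 43.2% and 45.8% in DSE-treated lungs. That window was called, at 12.9 percentage points (adjusted p = 3.25e-20, limma adjusted p = 0.0477).

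**Figure D4:**
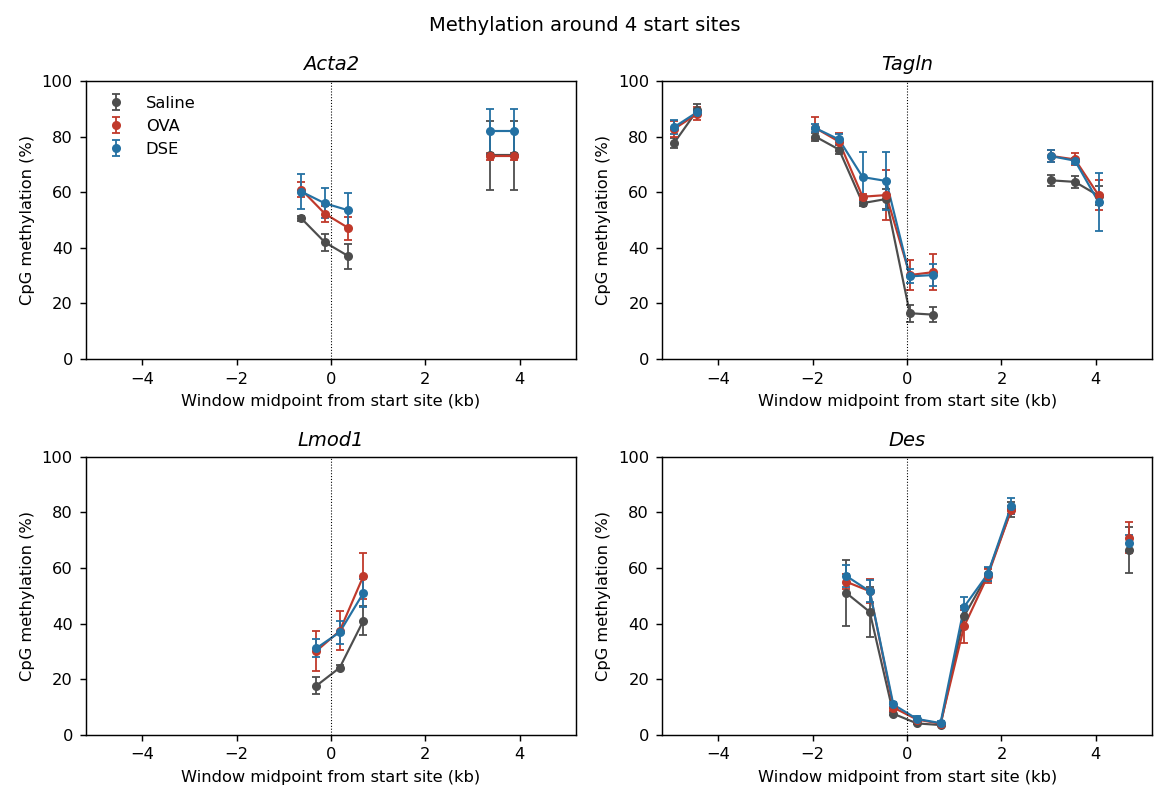
Methylation level (%, group mean with SD as bars) of the windows with midpoints within 5 kb of the start site of Acta2, Tagln, Lmod1 and Des, against distance in kb. Lines join only windows that overlap. Around the starts of Acta2, Tagln and Lmod1 the OVA and DSE points lie above the saline points, whereas in the start-site window of Des the mice lie between 3.7% and 7.1%.

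The regulator and the receptor had no window called between OVA-induced and saline mice. The Myocd start-site window (chr11:65269501-65270500, 48 CpGs) was at 4.4%, 4.5% and 5.9% in saline and 5.4%, 6.4% and 4.8% in OVA-induced mice, and the groups overlapped. The Chrm3 start-site window was at 0.0%, 0.7% and 1.4% in OVA-induced mice, within the saline values given above. Its 145 to 324 calls per mouse limit how small a change could be seen. No test was made of whether these genes differ in response from the other 8.

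By sequence class, 9 of 38 windows that touched the 1000 bp on either side of a start were called higher, with a median difference of 3.59 percentage points. The counts were 5 of 46 over exons, 6 of 80 within introns, 2 of 17 upstream and 2 of 21 downstream. Over all windows of any class the share was 4.83%, and it was not computed by class, so no class is said to stand apart.

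Over whole loci, the mean methylation of 3 of the 10 genes was called higher with OVA than with saline by limma across 32828 loci (adjusted p under 0.05), against 9.18% of all loci, and none was called lower. Tagln rose by 5.59 ± 1.12 percentage points (SE, adjusted p = 0.0154), from 59.3%, 60.5% and 62.3% to 65.4%, 66.9% and 66.6%. Myl9 rose by 4.63 ± 1.099 (adjusted p = 0.0259), from 49.7%, 49.0% and 51.8% to 55.0%, 53.6% and 55.7%. Lmod1 rose by 4.37 ± 1.00 (adjusted p = 0.0234), from 50.1%, 49.6% and 48.8% to 53.8%, 54.9% and 52.8%. For 7 of the 10 genes all OVA-induced mice lay above all saline mice, against 26.6% of all loci. These calls rest on few mice: without saline mouse 2 no member was called, and without OVA-induced mouse 2 or 3 only 1 was.

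Of the loci that were not called, Acta2 differed by 4.52 ± 1.65 (adjusted p = 0.0932), Mylk by 3.64 ± 1.08 (adjusted p = 0.0524), Myocd by 3.23 ± 1.14 (adjusted p = 0.0854), Des by 3.12 ± 0.995 (adjusted p = 0.0648), Cnn1 by 2.75 ± 1.45 (adjusted p = 0.226) and Myh11 by 1.72 ± 0.879 (adjusted p = 0.211). Chrm3 was the only locus of the 10 with a negative difference, at -1.09 ± 0.739 (adjusted p = 0.341). The median over the 10 loci was 3.44 percentage points, against 1.02 over all loci. For any single locus the exact permutation test of 3 against 3 mice cannot give a p under 0.1.

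**Figure D5:**
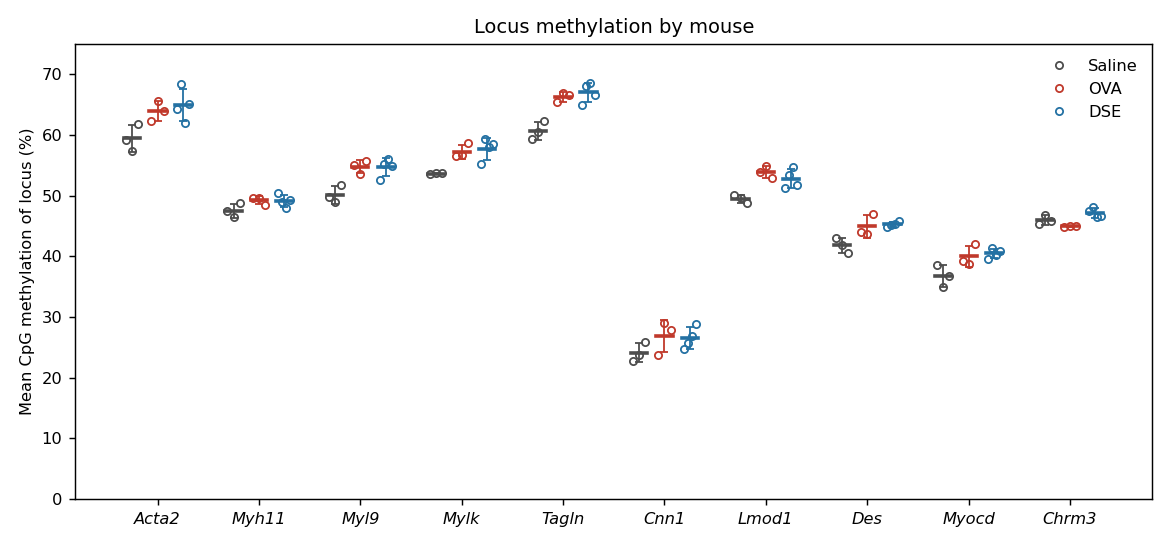
Mean methylation level (%) of each member locus by mouse, with 1 circle per mouse, a bar at the group mean and SD as error bars. For Acta2, Myl9, Mylk, Tagln, Lmod1, Des and Myocd all OVA and DSE mice lie above all saline mice, and for Chrm3 the DSE mice lie above the OVA mice.

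The DSE-treated mice were compared with the OVA-induced mice to ask which of these levels differed with the extract. In this comparison 2 of 202 member windows were called higher, or 0.990%, against 0.888% of all windows, and 1 was called lower, or 0.495%, against 0.699%. Of the 24 windows that were called higher after OVA, 0 were called in either direction, and their DSE minus OVA differences ran from -7.21 to 5.36 percentage points with a median of -0.805. Both comparisons use the same OVA-induced mice. These counts turn on single mice: without OVA-induced mouse 3 there were 7 higher and 2 lower, without DSE-treated mouse 4 there were 4 higher, and without OVA-induced mouse 2 or DSE-treated mouse 3 there was 1 higher.

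The called decrease was at Acta2. In the last exon (exon 9, chr19:34241001-34242000, 20 CpGs), levels were 71.2%, 61.5% and 66.7% in saline, 73.6%, 74.9% and 76.9% in OVA-induced lungs and 54.1%, 61.1%, 50.6% and 55.9% in DSE-treated lungs. The 3 groups did not overlap. DSE minus OVA was -20.01 percentage points (adjusted p = 5.84e-55) and DSE minus saline was -11.8 (adjusted p = 1.47e-19), whereas OVA minus saline was 8.25 and not called. With limma the adjusted p was 0.0286 for DSE minus OVA, where 0.0548% of all windows were called lower, and 0.0613 for DSE minus saline. At the Acta2 start, by contrast, the DSE-treated and OVA-induced mice overlapped. Neither window that overlaps the called exon 9 window was called in any comparison. At chr19:34240501-34241500 DSE minus OVA was 2.25 percentage points, with means of 31.9% with OVA and 36.0% with DSE. At chr19:34241501-34242500 it was -1.12, with means of 79.9% and 78.5%. Calls per mouse ran from 46 to 992, 484 to 706 and, in the called window, 626 to 1698. Whether an uneven share of calls from each side gave the decrease was not tested.

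The called increases were in introns. At Myocd (chr11:65197501-65198500, intron 7) saline mice were at 23.9%, 29.8% and 37.8%, OVA-induced mice at 29.1%, 26.1% and 29.7% and DSE-treated mice at 40.3%, 36.7%, 44.1% and 36.4%. DSE minus OVA was 11.1 percentage points (adjusted p = 5.96e-12, limma adjusted p = 0.267), and the saline mice overlapped both groups. At Chrm3 (chr13:9940001-9941000, intron 4, 3 CpGs) the difference was 10.6 (adjusted p = 0.00230) and the groups overlapped.

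No member locus was called between DSE-treated and OVA-induced mice by limma, where 0.0274% of all loci were called higher. At an unadjusted p under 0.05 there was 1, Chrm3, a share close to that over all loci, of which 3002 of 32828 passed this threshold in either direction. Chrm3 was 2.23 ± 0.691 percentage points higher in DSE-treated mice (adjusted p = 0.306). Its OVA-induced mice stood at 44.8%, 45.04% and 44.9% and its DSE-treated mice at 47.5%, 48.1%, 46.4% and 46.6%, without overlap (exact permutation p = 0.0571, the smallest that 3 against 4 mice allow). For the other 9 loci the differences lay between -1.08 ± 0.940 at Lmod1 and 1.02 ± 1.54 at Acta2. The median over the 10 loci was 0.413 percentage points, against -0.0121 over all loci.

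DSE-treated mice were also set against saline-treated mice, the controls that the first comparison used. Here 22 of the 202 windows were called higher, or 10.9%, against 5.02% of all windows, in 13 regions of 8 genes. The called lower windows were 2, or 0.990%, against 3.09%, namely the Acta2 exon 9 window and the Lmod1 3′ flank, which was at 62.7%, 62.1%, 67.1% and 56.4% in DSE-treated mice. Without saline mouse 1 or DSE-treated mouse 4, 1 window was called lower. In 19 of the 22 higher windows the groups did not overlap. Over the 202 windows all DSE-treated mice lay above all saline mice in 56, or 27.7%, against 16.4% of all windows, and limma called 13 of the 202 higher, against 2.76% of all windows. Of the 24 windows called higher with OVA alone, 18 were called higher here and 24 had a positive difference, from 5.44 to 15.5 percentage points with a median of 12.6. The 2 comparisons share the saline mice, so the 24 differences are not independent of the first ones.

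The greatest rise was in a window that spans the Acta2 start, with its midpoint 372.5 bp downstream (chr19:34254501-34255500). It also holds both printed Acta2 boxes. Saline mice were at 32.5%, 37.0% and 41.6%, OVA-induced mice at 45.1%, 51.9% and 44.4% and DSE-treated mice at 46.8%, 60.5%, 49.8% and 56.9%. DSE minus saline was 15.5 percentage points there (adjusted p = 3.28e-21, limma adjusted p = 0.0333). The Mylk windows in introns 22 and 17 described above followed with 14.7 (limma adjusted p = 0.0294) and 14.3 (limma adjusted p = 0.0313). In Mylk intron 21 (chr16:34958001-34959000) levels rose from 13.4%, 9.6% and 12.2% in saline to 20.5%, 24.0%, 39.9% and 23.3% in DSE-treated mice, with OVA-induced mice at 19.6%, 21.6% and 20.9%. That window was called with DSE at 14.0 percentage points, and with OVA alone it stood at 9.002, just under the size needed. At Tagln and Lmod1 the start-site windows were 13.0 and 12.9 points above saline (limma adjusted p = 0.0193 and 0.0375).

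By locus, 7 of the 10 genes were called higher in DSE-treated than in saline mice, against 14.3% of all loci. They were Tagln (6.34 ± 1.05 percentage points), Acta2 (5.55 ± 1.54), Myl9 (4.56 ± 1.03), Mylk (4.10 ± 1.01), Myocd (3.72 ± 1.07), Des (3.48 ± 0.931) and Lmod1 (3.29 ± 0.940), with limma adjusted p-values from 0.00568 for Tagln to 0.0374 for Myocd. Cnn1, Myh11 and Chrm3 differed by 2.40 ± 1.36, 1.63 ± 0.822 and 1.14 ± 0.691 and were not called. The fit with 4 DSE-treated mice has smaller standard errors than that with 3 OVA-induced mice. Leaving out 1 mouse at a time left between 1 and 7 of these calls, with 1 without saline mouse 2, 2 without DSE-treated mouse 2 or 4, 3 without saline mouse 1 or 3 and 4 without DSE-treated mouse 3.

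Another 34 genes of the contraction pathway were read in the same way. Between OVA-induced and saline mice, 26 of their loci had a positive difference, against 69.2% of all loci, and the median was 1.57 percentage points. By limma 3 were called higher and 2 lower, where 9.18% of all loci were called higher and 3.28% lower, so these counts were close to the background. The differences of greatest size were at Ppp1r14a, which encodes an inhibitor of myosin phosphatase (4.25 ± 1.25, adjusted p = 0.0505), Cald1, and Pln, which encodes the calcium pump inhibitor phospholamban (3.89 ± 1.42, adjusted p = 0.0923). The higher ones that were called were Cald1, which encodes the actin-binding protein caldesmon (4.18 ± 0.999, adjusted p = 0.0264), Ppp1r12a, which encodes the targeting subunit of myosin phosphatase (3.04 ± 0.874, adjusted p = 0.0475), and Tpm1, which encodes tropomyosin (2.66 ± 0.719, adjusted p = 0.0394). The lower ones were Kcnmb1, the beta subunit of the calcium-activated potassium channel that relaxes smooth muscle (-3.80 ± 1.0995, adjusted p = 0.0485), and Mkl1, a cofactor of serum response factor (-2.98 ± 0.747, adjusted p = 0.0308).

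By role, set against the same shares, 2 of 12 contractile apparatus genes were called higher, 1 of 16 regulators of contraction was called higher and 1 lower, and 1 of 6 smooth muscle transcription factors was called lower. Between DSE-treated and saline mice, 6 of the 34 were called higher and 2 lower, where 14.3% of all loci were called higher and 4.47% lower, which is again near these counts. Cald1 (3.68 ± 0.934), Ppp1r12a (2.64 ± 0.817), Ppp1r14a (3.75 ± 1.16), Ppp1cb, Pln (4.67 ± 1.32) and Foxf1 were higher, and Kcnmb1 (-4.23 ± 1.03) and Mkl1 (-3.11 ± 0.699) were lower. Between DSE-treated and OVA-induced mice 0 of the 34 were called by limma, and 2 had an unadjusted p under 0.05, against 3002 of all 32828 loci. The differences of greatest size were 3.31 ± 1.16 at Chrm2, the gene of the M2 receptor (adjusted p = 0.392), -1.65 ± 1.01 at Rock2 and -1.61 ± 0.620 at Rhoa.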

How the data were processed

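The submitters captured and bisulfite-converted lung DNA (SureSelect Methyl-seq). The authors used Cutadapt for trimming, Bismark for mapping against mm10, and methylKit for summing CpG calls in windows of 1000 bp at steps of 500 bp. The methods give versions 1.13, 0.17.0 and 1.6.0, and the processing notes give 1.10, 0.19.0 and 1.0.0. The deposited values are counts of methylated and unmethylated CpG calls per window and mouse. Whether PCR duplicates were removed is not given in the sources used here, so calls may not be independent molecules.

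Groups and mouse numbers came from the sample titles. The labels call the treated mice herb-treated, and the study describes DSE as its herbal treatment. The members and all lists were chosen with earlier results of these data known. Windows with under 20 calls in any mouse were left out. The main window test was a binomial likelihood ratio test on calls summed by group, with Benjamini-Hochberg adjustment over all windows. This choice follows the study's thresholds (adjusted p under 0.01, difference of at least 10 percentage points). limma 3.58.1 (R 4.3.3) was fitted over all 10 mice to log2 ratios of methylated to unmethylated calls, with 1 added to each, and to the mean percent of the windows of each RefSeq gene span with 5000 bp flanks and at least 3 windows. Other work used Python 3.11.15 with numpy 2.4.6, scipy 1.17.1 and pandas 2.3.3, and the tests were checked on simulated data. When the simulated mice of a group differed from each other, the likelihood ratio test also called some unchanged windows, limma called few, and an F test with overdispersion recovered no changed window. All members, their start-site windows and the called windows were named by rule, with up to 3 per direction in full, those with the greatest differences and non-overlapping groups, as were the 3 pathway genes with the greatest differences per comparison. Fuller values of other called windows, and other pathway genes, were given after their values were seen. Pairs of mice within a group differed by a mean chi-square of 2.64 to 3.76 per window and no pair agreed within sampling noise, though calls that are not independent would also raise this value.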

Additional observations from a re-analysis of the deposited data

Results flagged for a closer look

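Among 28 values examined in the 4 DSE-treated mice (the 10 locus means and the named windows), 1 had a mouse that stood apart by Dixon's test, and chance alone flags about 1 in 20 such groups. At the Lmod1 window starting at 135325001 on chromosome 1, DSE-treated mouse 2 was at 58.3%, while the other 3 were between 48.0% and 49.6%.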

How the results depend on the processing

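The values with the mouse number as a block were read once, since same-numbered mice of different groups did not deviate together (correlations of their deviations over all windows from -0.0273 to 0.0785). With this replicate block the DSE minus OVA count of windows called higher was 4, the DSE minus saline count called lower was 1, and 2 loci were called higher between DSE-treated and saline mice. For windows the block leaves out DSE-treated mouse 4, which has no partner. Under the block, DSE minus OVA was -0.166 at the Myh11 window starting at 14291001, 0.000691 at the Tagln window starting at 45935501 and -0.219 at the Des window starting at 75360001, each opposite in sign to the value without it.

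Allowing for overdispersion in an F test left 0 windows called in any comparison. At an unadjusted p under 0.05 and the same difference, this test had 17 higher and 1 lower for OVA minus saline, 1 and 1 for DSE minus OVA and 20 and 2 for DSE minus saline. At a difference of at least 20 points only the Acta2 exon 9 window was called, lower with DSE than with OVA alone, and the other counts were 0. With windows that do not overlap, 11 were called higher for OVA minus saline, 1 for DSE minus OVA and 10 for DSE minus saline, of 100 tested. limma called 6, 0 and 13 higher and 1 lower between DSE-treated and saline mice. The share of all windows that limma called lower in that comparison is not given here. Among loci, 5 were called higher between OVA-induced and saline mice with at least 50 calls, 2 between DSE-treated and OVA-induced mice with pooled calls, and 4 between DSE-treated and saline mice on M-values. Apart from limma on windows, the shares of all windows or loci under the settings of this section are not given here. These counts are therefore not read against a background.

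Without 1 mouse at a time, the windows called were 18 to 27 higher and 0 to 3 lower for OVA minus saline, 1 to 7 and 1 to 2 for DSE minus OVA, and 18 to 29 and 1 to 3 for DSE minus saline. The loci called higher were 0 to 4, 0 to 0 and 1 to 7, and 0 were called lower.

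Among the windows named by rule and the member loci for which these settings were run, no called difference turned its sign. Some were no longer called. Without 1 mouse at a time, OVA minus saline ran from 8.47 to 11.85 at the Acta2 start-site window. It ran from 9.23 to 16.3 at that of Lmod1 and from 12.5 to 16.6 at that of Tagln. The differences that turned their sign were DSE minus OVA values, apart from start-site windows of Myocd and Chrm3. With the median of all windows subtracted, the Myocd start-site window (starting at 65269501) was at -0.147 for OVA minus saline, 0.0101 for DSE minus OVA and -0.170 for DSE minus saline. With unweighted means it was at 0.0241 for DSE minus OVA, and the Chrm3 start-site window (starting at 10360501) was at 0.0349 for OVA minus saline. Among DSE minus OVA locus means, at least 50 calls gave -0.885 for Acta2, 0.476 for Myh11, 0.00884 for Myl9 and 0.130 for Cnn1. Pooled calls gave -3.39 for Acta2, -0.407 for Mylk and 0.197 for Lmod1. Windows that do not overlap gave -0.900 for Acta2 and 0.622 for Myl9, M-values gave 0.000633 for Myl9, and no minimum of calls gave -2.35 for Tagln and -0.197 for Des. Leaving out 1 mouse at a time, DSE minus OVA ran from -0.117 to 2.00 at the Acta2 locus, -0.523 to 0.302 at Myh11, -0.655 to 0.620 at Myl9, -0.0773 to 1.31 at Mylk, -1.88 to 0.706 at Cnn1, -0.229 to 1.43 at Des and -0.167 to 1.49 at Myocd. At the start-site windows it ran from -0.596 to 0.830 at Myh11, -3.56 to 0.576 at Tagln, -3.39 to 3.65 at Lmod1, -0.219 to 0.631 at Des and -0.327 to 0.394 at Myocd, and OVA minus saline at Chrm3 ran from -0.558 to 0.738. The cause of these changes was not tested.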
